A study of Mus musculus with 25 samples.

Results

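The galactolipids of myelin, galactosylceramide and its sulfated form sulfatide, were followed through 6 genes, 3 for enzymes that make these lipids (Ugt8a, Fa2h and Gal3st1) and 3 for proteins that take them apart in the lysosome (Galc, Arsa and Psap). They were chosen by their known roles, matched by symbol to the Ensembl identifiers of the count table, and all 6 of the 6 were found among its 56956 genes and passed the filter on low expression. The RNA came from whole sciatic nerve of 2 mouse models of Charcot-Marie-Tooth disease type 1A, a demyelinating neuropathy caused by an extra copy of PMP22. C3 mice (B6.Cg-Tg(PMP22)C3Fbas/J, C57BL/6J background) carried 5 extra copies of human PMP22, and C22 mice (Tg(PMP22)C22Clh, FVB/NRJ background) carried 10. WT-C3 (C57BL/6J) and WT-C22 (FVB/NRJ) were their controls without the transgene and the models thus differ in strain as well as in copy number. The remaining group, C3-c-JunP0Cre, carried the C3 transgene and lacked c-Jun in Schwann cells, where a Cre active in these cells (P0Cre) had removed it, and its strain background is not given in the sources used here. Per the study's methods, the transgene is a yeast artificial chromosome kept heterozygous, and the C3 line arose from the C22 line as a spontaneous partial revertant. Nerves were taken at ages of 3, 5, 7, 9 or 12 weeks, with 1 library per group and age from the pooled nerves of 4 to 5 animals of both sexes.

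Galactosylceramide is made when a galactose from UDP-galactose is placed on ceramide by the enzyme that Ugt8a encodes. Fa2h encodes the hydroxylase that puts a hydroxyl group on the fatty acid of the ceramide beforehand, and Gal3st1 encodes the sulfotransferase that turns galactosylceramide into sulfatide. Breakdown runs in reverse in the lysosome, where arylsulfatase A (Arsa) removes the sulfate and galactosylceramidase (Galc) the galactose, both helped by the saposins cut from prosaposin (Psap). These lipids make up a large share of the myelin of Schwann cells and oligodendrocytes, and loss of Galc or Arsa causes Krabbe disease and metachromatic leukodystrophy, respectively.

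Depth on genes ran from 2140142 to 49072746 counts per library (median 24663235), and the lowest was the C3 library of 9 weeks. Values are CPM, the count of a gene per 1e+06 counts of its library, after scaling by the TMM factors of edgeR. Because no group had a second pool at the same age, the 5 ages served as replicates (n = 5), and each SD and standard error (SE) covers both the course with age and the spread between pools. Jun was at 29.2 ± 2.44 CPM in C3-c-JunP0Cre and 110 ± 11.6 CPM in C3 mice (log2 fold change -1.90, SE 0.09, edgeR adjusted p = 7.29e-07), and human PMP22 was at 6.40 CPM or less in each library without the transgene. With it, human PMP22 stood at 12623 ± 1608 CPM in C3, 11431 ± 3064 CPM in C3-c-JunP0Cre and 11846 ± 1507 CPM in C22 mice, so that C22 mice, with more copies, did not have a higher mean than C3 mice. In whole nerve, fewer cells of a type and less RNA per cell cannot be told apart.

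On GRCm39, Ugt8a (ENSMUSG00000032854) lies on the minus strand of chromosome 3 from 125654459 to 125732736, Fa2h (ENSMUSG00000033579) on the minus strand of chromosome 8 from 112071767 to 112120465, and Gal3st1 (ENSMUSG00000049721) on the plus strand of chromosome 11 from 3933616 to 3951296. Galc (ENSMUSG00000021003) spans 98167963 to 98225718 of chromosome 12 (minus strand), Arsa (ENSMUSG00000022620) 89355820 to 89361653 of chromosome 15 (minus strand) and Psap (ENSMUSG00000004207) 60113431 to 60138380 of chromosome 10 (plus strand). All 6 are protein coding, and counts were taken over their exons. A long noncoding RNA lies antisense to Ugt8a, to Galc and to Arsa. The strand setting of the counting is not given in the sources used here. The antisense gene of Arsa, C230037L18Rik, had at most 111 counts in any of the libraries. The lowest Arsa count was 84, in the C3 library of 9 weeks, which had the lowest depth. These extremes were taken separately over the libraries and need not come from the same library.

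The promoters of Ugt8a, Gal3st1 and Arsa are shown because these genes moved in different directions, or in the case of Arsa did not pass the threshold, in the same nerves. The RefSeq promoter table (build GRCm38.p6, not the build of the alignment) held 8 windows for 5 of the 6 genes, all but Fa2h. Each line gives the 250 bases before a transcription start, 5′ to 3′ on the strand of the gene, for Ugt8a at chr3:125938653-125938902 (minus strand), for the first of 3 Gal3st1 starts at chr11:3983386-3983635 (plus strand) and for Arsa at chr15:89477425-89477674 (minus strand). Capitals mark matches to a motif that was searched.
Ugt8a: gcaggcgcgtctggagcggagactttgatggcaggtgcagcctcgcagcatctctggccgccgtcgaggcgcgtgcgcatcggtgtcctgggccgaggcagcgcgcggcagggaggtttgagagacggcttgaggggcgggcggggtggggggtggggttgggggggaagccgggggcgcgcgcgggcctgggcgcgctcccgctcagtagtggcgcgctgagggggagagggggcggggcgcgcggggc
Gal3st1: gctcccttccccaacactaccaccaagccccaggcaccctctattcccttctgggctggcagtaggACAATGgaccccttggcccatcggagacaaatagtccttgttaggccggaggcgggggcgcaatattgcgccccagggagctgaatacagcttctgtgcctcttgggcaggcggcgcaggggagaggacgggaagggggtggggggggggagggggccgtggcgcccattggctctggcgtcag
Arsa: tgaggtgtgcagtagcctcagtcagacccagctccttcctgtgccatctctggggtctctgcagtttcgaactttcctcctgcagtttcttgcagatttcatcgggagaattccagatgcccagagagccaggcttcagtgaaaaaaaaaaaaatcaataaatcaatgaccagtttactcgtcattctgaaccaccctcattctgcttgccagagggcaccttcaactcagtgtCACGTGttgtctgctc
The windows, from 250 bases before to 50 after the start, were searched on both strands for CACGTG (the E-box of lysosomal genes), ACAAAG and ACAATG (cores bound by SOX factors), GCGTGGG (an EGR core) and TCACNCCAC (a sterol element). The Ugt8a window held none of them, and its 250 bases before the start were 76.8% G or C, against a median of 52.4% over all windows. Gal3st1 held ACAATG, 184 bases before the first start and 199 before the second, and the third window, at another promoter, held none. Arsa held CACGTG 16 bases before its start. The windows of Galc and Psap held none of the 5 motifs. Of all 32851 windows of this length in the table, 7.15% held CACGTG, 18.7% ACAAAG, 12.6% ACAATG, 5.04% GCGTGGG and 1.24% TCACNCCAC.

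The first comparison asked how the synthesis of galactolipids differed between each model and its control. Ugt8a fell in both models, Fa2h fell in both but by less, and Gal3st1 did not follow them and was higher than in the control at 5 of 5 ages in each model. Ugt8a, whose enzyme makes galactosylceramide, stood at 2230, 1864, 1370, 1327 and 889 CPM in WT-C3 mice from 3 to 12 weeks. In C3 mice it stood at 733, 668, 671, 530 and 446 CPM. All 5 C3 libraries lay below all 5 WT-C3 libraries, and the highest C3 value, at 3 weeks, was below the lowest control value, at 12 weeks. This is a log2 fold change of -1.34 against WT-C3 (SE 0.22, edgeR adjusted p = 0.00182), which leaves 39.6% of the control level.

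C22 mice had the lowest Ugt8a of all groups, with 263, 282, 278, 214 and 243 CPM from 3 to 12 weeks. Their WT-C22 controls had 2068, 1873, 1185, 1100 and 665 CPM at the same ages. The groups did not overlap, and the C22 values stayed within a narrow band while the control values declined with age. Relative to WT-C22 it was changed by -2.43 in log2 (SE 0.27, edgeR adjusted p = 3.05e-05), or 18.5% of the control level. At 3 weeks C22 mice had 12.7% of the control level of Ugt8a and at 12 weeks 36.5%, and the corresponding shares in C3 mice were 32.9% and 50.2%.

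Fa2h, the hydroxylase of galactolipid fatty acids, stood at 698, 653, 543, 525 and 446 CPM in WT-C3 mice and at 438, 437, 361, 402 and 306 CPM in C3 mice. Its values in C22 mice were 238, 252, 250, 216 and 248 CPM, against 817, 633, 577, 543 and 345 CPM in WT-C22 mice. In neither model did the groups overlap, and the 12 week library was the lowest of each control. The log2 fold change of Fa2h was -0.56 in C3 mice (SE 0.13, edgeR adjusted p = 0.0112) and -1.28 in C22 mice (SE 0.18, edgeR adjusted p = 0.000176). These changes leave 67.6% and 41.1% of the control level.

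Gal3st1, the sulfotransferase of sulfatide synthesis, stood at 132, 109, 94.7, 91.4 and 72.4 CPM in WT-C3 mice and at 152, 139, 121, 142 and 94.4 CPM in C3 mice. The C3 value was above the control value at 5 of 5 ages, but the groups overlapped, and the log2 difference of 0.37 (SE 0.16) did not pass the threshold (edgeR adjusted p = 0.107). In C22 mice the 5 values were 139, 148, 111, 89.9 and 107 CPM, against 126, 79.9, 73.5, 69.6 and 66.8 CPM in WT-C22 mice. The 3 week WT-C22 library alone reached into the range of the C22 libraries. Gal3st1 rose in C22 mice by 0.51 in log2 (SE 0.19, edgeR adjusted p = 0.0441). That call is close to the threshold and was lost in 8 of 10 fits that left out 1 library, with edgeR adjusted p up to 0.109. It held in the fits without the C22 library of 9 weeks or the WT-C22 library of 3 weeks. In those 10 fits the log2 fold change lay between 0.42 and 0.71. The call was also lost without the libraries of each group highest in muscle markers (log2 fold change 0.43, edgeR adjusted p = 0.161). These were C22 at 3 weeks and WT-C22 at 5 weeks, so that fit compared unequal ages. In C3 mice Gal3st1 passed with age as a block (log2 difference 0.38, edgeR adjusted p = 0.0077). Over all genes, libraries of the same age did not deviate together at every age in that comparison. Gal3st1 itself was lower at 12 than at 3 weeks in both groups, a course that the fit by group counts as spread. In the fit by group, the edgeR adjusted p of Gal3st1 was 0.0344 without the WT-C3 library of 3 weeks and 0.0357 without the C3 library of 12 weeks. Without the libraries highest in muscle markers (C3 at 12 weeks and WT-C3 at 5 weeks) the edgeR adjusted p was 0.049. Each of these fits compared unequal ages.

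**Figure D1:**
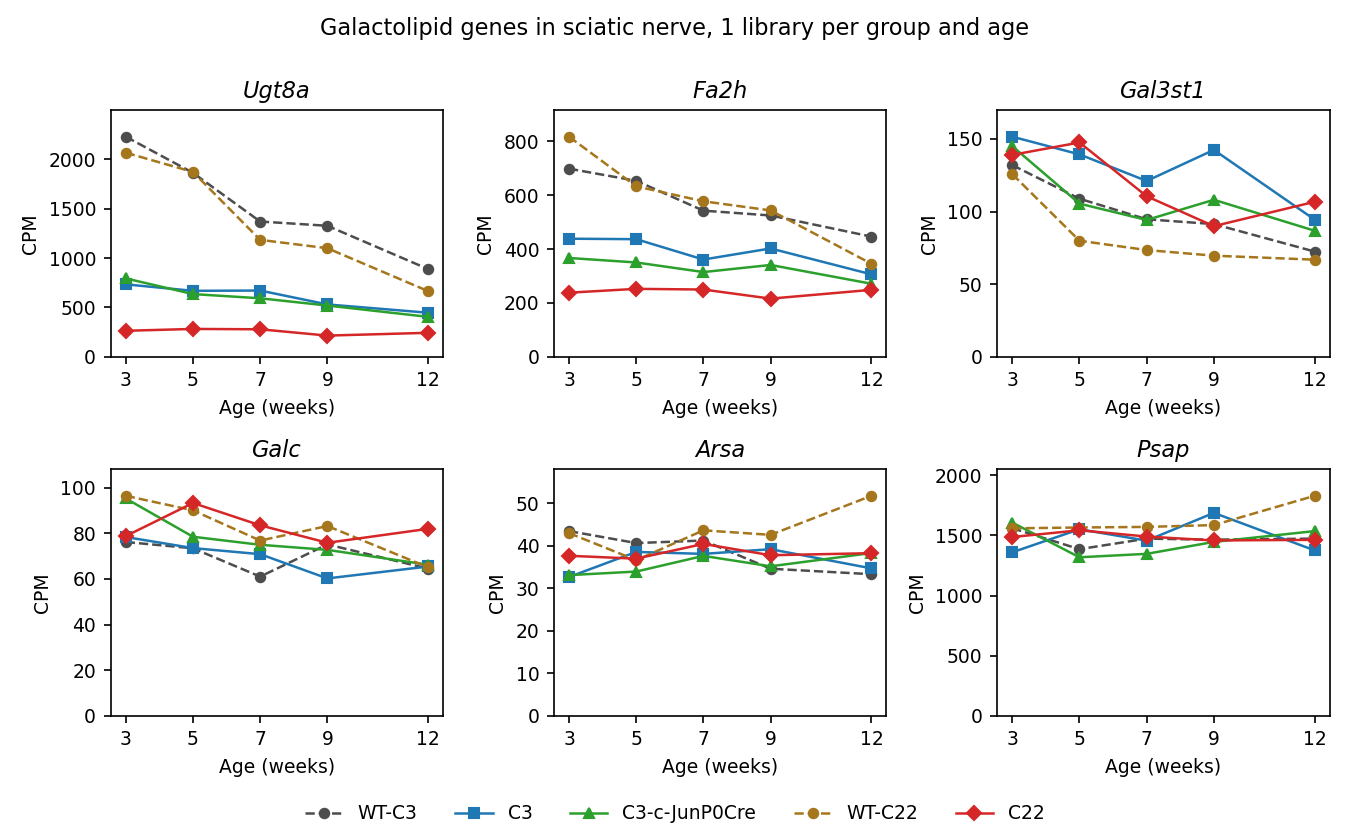
CPM (vertical axis, from 0) of the 6 genes against age in weeks, 1 point per library, with dashed lines for the controls and solid lines for the groups with the transgene. Ugt8a and Fa2h of C22 mice stay nearly level, at 214 to 282 CPM and 216 to 252 CPM, while the controls decline from 3 to 12 weeks. The 5 groups lie closer together for Galc, Arsa and Psap. Psap of C22 mice still lies below that of WT-C22 mice without overlap, and Arsa of WT-C22 mice reaches 51.8 CPM at 12 weeks.

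Over all 13993 genes tested, 11.4% were called lower and 12.5% higher in C3 mice, and 20.5% were called lower and 21.9% higher in C22 mice, each at an adjusted p under 0.05. Against this background, 2 of the 6 members were called lower and 0 higher in C3 mice, and 2 were called lower and 1 higher in C22 mice. The groups were fully separated, with the model below its control, for 8.2% of genes in C3 mice, among them Ugt8a and Fa2h, and for 14.5% of genes in C22 mice, among them Ugt8a, Fa2h and Psap.

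Whether the change in C22 mice was larger than that in C3 mice was tested directly in 1 fit of both models and both controls, in which 7.31% of genes were called lower and 4.75% higher in C22 mice. Of the 6 members, Ugt8a (difference of log2 fold changes -1.12, SE 0.36, edgeR adjusted p = 0.0486) and Fa2h (-0.74, SE 0.24, edgeR adjusted p = 0.0454) were called. Both p values lie just under the threshold, and 0 of the 6 members were called with other scalings or filters on low counts. The call of Ugt8a was lost in 16 of the 20 fits that left out 1 library and that of Fa2h in 17 of 20, with edgeR adjusted p up to 0.107 and 0.101, while the differences ran from -1.30 to -0.90 and from -0.88 to -0.56. Both calls held in fits that lacked the 12 week library of WT-C22, the C3 library of 12 weeks or the WT-C3 library of 3 weeks, and that of Ugt8a also without the C3 library of 9 weeks. Gal3st1 did not pass (0.12, 95% interval -0.43 to 0.66), nor did Galc, Arsa or Psap.

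Breakdown of galactolipids was examined in the same way. Galc, which removes the galactose, differed little, with 76.2, 73.5, 61.1, 75.2 and 64.6 CPM in WT-C3 mice and 78.4, 73.5, 70.9, 60.2 and 65.5 CPM in C3 mice. In WT-C22 mice its values were 96.5, 90.1, 76.9, 83.2 and 65.1 CPM, and in C22 mice 78.8, 93.3, 83.5, 75.9 and 82.0 CPM. The groups overlapped in both models, and the 95% interval of the log2 difference ran from -0.20 to 0.20 in C3 mice and from -0.22 to 0.22 in C22 mice. A change of Galc of the size seen for Ugt8a or Fa2h lies outside these intervals.

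Arsa, which removes the sulfate, stood at 43.5, 40.7, 41.3, 34.6 and 33.3 CPM in WT-C3 mice and at 32.7, 38.6, 38.1, 39.2 and 34.7 CPM in C3 mice (log2 difference -0.08, 95% interval -0.28 to 0.11). In WT-C22 mice its values were 43.0, 36.7, 43.7, 42.6 and 51.8 CPM and in C22 mice 37.7, 37.0, 40.5, 37.8 and 38.3 CPM. C22 mice were lower at 4 of 5 ages and the groups overlapped at 5 weeks. The log2 difference in C22 mice was -0.20 (95% interval -0.38 to -0.02, edgeR adjusted p = 0.0733).

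Psap, the precursor of the saposins, stood at 1559, 1385, 1473, 1464 and 1473 CPM in WT-C3 mice and at 1359, 1551, 1456, 1687 and 1375 CPM in C3 mice (log2 difference 0.01, 95% interval -0.17 to 0.19). WT-C22 mice had 1559, 1565, 1570, 1585 and 1829 CPM and C22 mice 1486, 1542, 1490, 1458 and 1463 CPM. The C22 libraries lay below the WT-C22 libraries without overlap, by a small margin, and the log2 difference of -0.13 did not pass the threshold (95% interval -0.31 to 0.05, edgeR adjusted p = 0.214). With edgeR, 0 of the 3 breakdown genes were called in either model. At an unadjusted p under 0.05 the number was 0 in C3 mice and 1, Arsa, in C22 mice, and the Wald test of DESeq2 called 0 in C3 mice and 2, Arsa and Psap, in C22 mice, both lower. Over all genes, the alternatives run, DESeq2 among them, called 3979 to 7218 in C22 mice, against 5939 in the main fit. The share of all genes that DESeq2 alone called is not given here, so its calls of members have no background beside them.

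**Figure D2:**
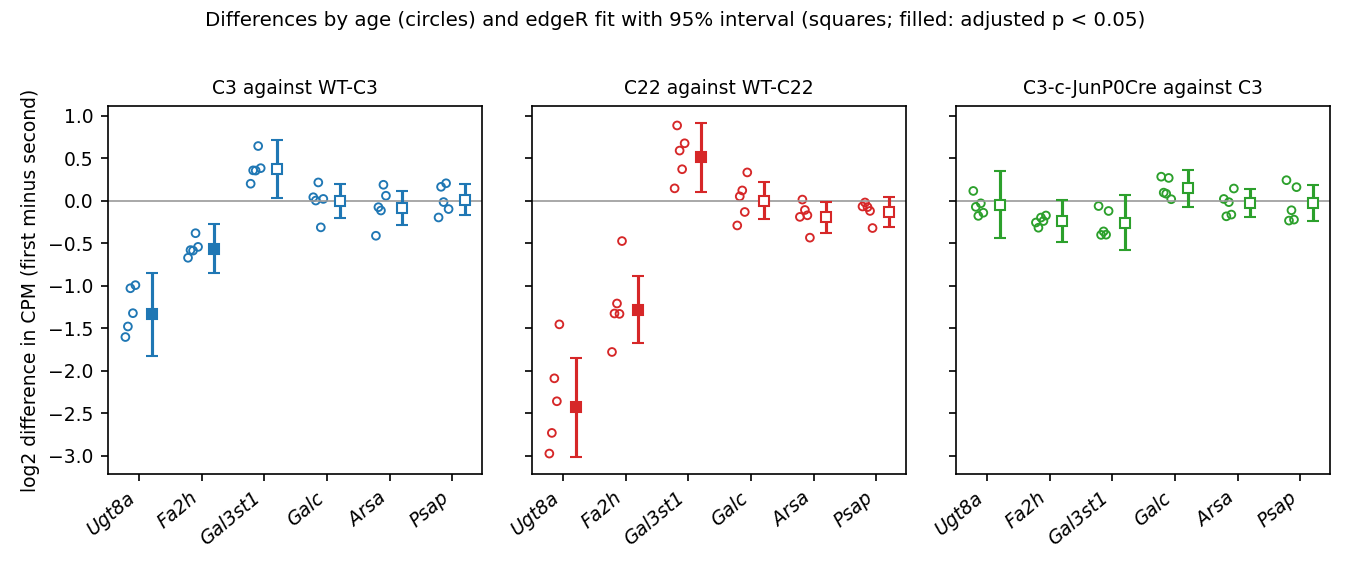
Log2 difference in CPM (vertical axis) of each gene, first group minus second. Open circles are the 5 ages from 3 weeks (left) to 12 weeks (right), and squares are the edgeR estimate with its 95% interval, filled where the adjusted p is under 0.05. Ugt8a and Fa2h lie below 0 at 5 of 5 ages in C3 and C22 mice, Gal3st1 lies above 0 at 5 of 5 ages in both, and no square is filled for C3-c-JunP0Cre against C3.

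Loss of c-Jun was examined against C3 mice to see whether c-Jun bears on these genes in the presence of the transgene. Few genes differed at all, with 0.55% called in either direction, and with edgeR 0 of the 6 members were called, 0 at an unadjusted p under 0.05 and 0 by DESeq2. Ugt8a in C3-c-JunP0Cre mice stood at 794, 635, 593, 519 and 404 CPM, close to the C3 values at each age (log2 difference -0.05, 95% interval -0.44 to 0.35). Fa2h, at 367, 350, 314, 341 and 271 CPM, was below C3 at 5 of 5 ages, and so was Gal3st1, at 145, 105, 94.2, 108 and 86.8 CPM. Their log2 differences were -0.24 (95% interval -0.49 to 0.01, edgeR adjusted p = 0.66) and -0.26 (95% interval -0.59 to 0.07, edgeR adjusted p = 0.759). Galc was higher at 5 of 5 ages by a log2 difference of 0.15 (95% interval -0.07 to 0.37, edgeR adjusted p = 0.811), with 95.3, 78.5, 75.0, 72.8 and 66.3 CPM. Arsa and Psap differed by -0.03 each, with intervals from -0.20 to 0.14 and from -0.24 to 0.18. The intervals and p values above are from the fit by group, without pairs. Libraries of the same age resembled each other in this comparison. With age as a block 273 genes were called in place of 77, with 0 of the 6 members among them.

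Set against WT-C3, where 11.3% of genes were called lower, the C3-c-JunP0Cre mice had lower Ugt8a (log2 fold change -1.38, SE 0.24, edgeR adjusted p = 0.00154) and lower Fa2h (-0.80, SE 0.13, edgeR adjusted p = 0.000993). Both genes were fully below the control, as were 8.34% of genes. Gal3st1 was at a log2 difference of 0.11 (95% interval -0.25 to 0.47, edgeR adjusted p = 0.675) and above the control at 3 of 5 ages. This comparison and that of C3 mice share the WT-C3 libraries.

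The controls of the models differed from each other in 21.7% of genes in either direction. With edgeR, 0 of the 6 members were called between WT-C22 and WT-C3, 0 at an unadjusted p under 0.05 and 0 by DESeq2. Galc was higher in WT-C22 at 5 of 5 ages (log2 difference 0.23, 95% interval -0.003 to 0.47, edgeR adjusted p = 0.151) and Gal3st1 was lower at 5 of 5 ages (-0.26, 95% interval -0.68 to 0.15, edgeR adjusted p = 0.362). The log2 difference was -0.16 for Ugt8a and 0.03 for Fa2h, with intervals of -0.82 to 0.51 and -0.40 to 0.45 that span the wide range over ages. Galc was called when WT-C22 lacked its 12 week library (edgeR adjusted p = 0.0349), and Gal3st1 when it lacked its 3 week library (edgeR adjusted p = 0.0436). Both were called with age as a block (edgeR adjusted p = 0.0436 for Galc and 0.0249 for Gal3st1).

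Age was examined within each group with a natural spline of 3 degrees of freedom and with a straight line, fitted to the 25 libraries together over 18088 genes. Ugt8a declined with age in both controls by either test, Fa2h did so in WT-C22 by both and in WT-C3 by the linear slope, and Gal3st1 in WT-C22 mice by both. Gal3st1 in WT-C3 mice passed neither (edgeR adjusted p = 0.0711 with the spline and 0.0624 with the slope). The spline called 0.58% of genes in WT-C3, 1.89% in C3, 2.82% in C3-c-JunP0Cre, 2.58% in WT-C22 and 0.52% in C22 mice. Among the members it called Ugt8a in WT-C3 mice (edgeR adjusted p = 0.0359) and Ugt8a, Fa2h and Gal3st1 in WT-C22 mice (edgeR adjusted p = 0.00714, 0.0124 and 0.0167). In C3, C3-c-JunP0Cre and C22 mice it called 0 of the 6, against 3, 3 and 1 at an unadjusted p under 0.05 and 2, 2 and 1 with the likelihood ratio test of DESeq2.

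The slope of Ugt8a was -0.14 log2 CPM per week in WT-C3 (SE 0.02, edgeR adjusted p = 0.000278) and -0.18 in WT-C22 mice (SE 0.02, edgeR adjusted p = 2.14e-05). It was -0.08 in C3 (SE 0.02, edgeR adjusted p = 0.013) and -0.10 in C3-c-JunP0Cre mice (SE 0.02, edgeR adjusted p = 0.00323). In C22 mice it was -0.03 (SE 0.02, edgeR adjusted p = 0.538). Fa2h had slopes of -0.07 in WT-C3 (SE 0.02, edgeR adjusted p = 0.0235), -0.12 in WT-C22 (SE 0.02, edgeR adjusted p = 0.000322) and -0.003 in C22 mice (SE 0.016, edgeR adjusted p = 0.966). With this test the members called lower with age were Ugt8a and Fa2h in WT-C3, Ugt8a in C3, Ugt8a in C3-c-JunP0Cre, and Ugt8a, Fa2h and Gal3st1 in WT-C22 mice, where 1.17%, 2.05%, 2.28% and 2.96% of genes were called lower. In C22 mice, where 0.26% of genes were called lower with age, it was 0 of the 6. Calls often rested on the first or last age. Without the 3 week library of the group the slope of Ugt8a was not called in WT-C3 (edgeR adjusted p = 0.0775), C3 (0.121) or C3-c-JunP0Cre mice (0.0766), nor Fa2h in WT-C3 (0.32) or Gal3st1 in WT-C22 mice (0.58). Without the 12 week library the same held for Ugt8a in C3 (edgeR adjusted p = 0.162) and C3-c-JunP0Cre mice (0.134), for Fa2h in WT-C3 (0.251) and WT-C22 mice (0.0919) and for Gal3st1 in WT-C22 mice (0.0942). Fa2h in WT-C3 mice also missed the threshold without 5 weeks (edgeR adjusted p = 0.0516). Galc had slopes of -0.06 in WT-C22 (edgeR adjusted p = 0.0515) and -0.05 in C3-c-JunP0Cre mice (edgeR adjusted p = 0.0791), and the former was called without the WT-C22 library of 7 weeks (0.0498) or 9 weeks (0.0388). In the remaining groups Galc was between -0.034 and -0.0085. Arsa had slopes from -0.043 to 0.037 and Psap from -0.0061 to 0.025, with no call in any group.

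A direct test of the slopes called few genes, 0.243% higher in C22 than in WT-C22 mice and 0.0166% in either direction in C3 against WT-C3 mice. Ugt8a and Fa2h were among the former. The slope of Ugt8a in C22 mice was 0.16 log2 CPM per week above that of WT-C22 mice (SE 0.03, edgeR adjusted p = 0.0109), and that of Fa2h 0.12 above (SE 0.02, edgeR adjusted p = 0.0236). With 1 library left out, the call of Ugt8a was lost in 3 of 10 fits, those without the C22 libraries of 3 or 12 weeks or the WT-C22 library of 12 weeks (edgeR adjusted p = 0.14, 0.166 and 0.334). That of Fa2h was lost in 4, without the same libraries or the WT-C22 library of 3 weeks (edgeR adjusted p = 0.221, 0.25, 0.678 and 0.123), while the slope differences stayed between 0.14 and 0.17 and between 0.09 and 0.13. The spline called 0.0387% of genes in this comparison and 0 of the 6 members, 3 at an unadjusted p under 0.05 and 2 with DESeq2. For C3 against WT-C3 mice the spline called 0.0221% of genes and 0 of the members, 0 at an unadjusted p under 0.05 and 0 with DESeq2, and the slope difference of Ugt8a was 0.06 (SE 0.03, edgeR adjusted p = 0.675).

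Levels of different genes were set side by side as CPM per kb of exon. With the merged exons of all transcripts, WT-C3 mice had 461 ± 19.3 for Psap, 190 ± 33.8 for Fa2h, 145 ± 48.9 for Ugt8a, 9.01 ± 2.00 for Gal3st1, 8.48 ± 0.97 for Arsa and 3.99 ± 0.39 for Galc (SD, n = 5). Fa2h and Ugt8a are neighbours in this order whose spreads over the ages overlap, but Fa2h was the higher within each WT-C3 library. Gal3st1 and Arsa are neighbours that do not differ beyond their spread. In C22 mice the order was the same, but Ugt8a at 24.1 ± 2.63 was now well below Fa2h at 79.8 ± 4.96. With the length of the canonical transcript instead, an alternative chosen after the data were seen, Ugt8a led Fa2h in WT-C3 mice, with 409 ± 138 against 230 ± 40.9, and trailed it in C22 mice, with 68.2 ± 7.45 against 96.6 ± 6.00, and Galc moved above Arsa. On either length Psap was first in each group.

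Ratios within a library remove scaling and show this shift gene against gene. They are log2 ratios of CPM, in which transcript lengths cancel between groups. Gal3st1 over Ugt8a was -3.90 ± 0.20 in WT-C3 and -2.23 ± 0.21 in C3 mice, and -3.98 ± 0.44 in WT-C22 and -1.12 ± 0.19 in C22 mice. The model libraries lay above those of their controls without overlap. Ugt8a over Galc, the transferase against the galactosidase, was 4.39 ± 0.43 in WT-C3 against 3.11 ± 0.20 in C3 mice and 3.96 ± 0.45 in WT-C22 against 1.63 ± 0.11 in C22 mice. In C3 and C22 mice it did not reach the lowest control value at any age. Gal3st1 over Arsa, the sulfotransferase against the sulfatase, moved the other way, from 1.35 ± 0.19 to 1.81 ± 0.28 in C3 and from 0.90 ± 0.45 to 1.61 ± 0.32 in C22 mice, with overlap between the groups in both models. The mean of the 3 synthesis genes over that of the 3 breakdown genes was 1.45 ± 0.28 in WT-C3, 0.99 ± 0.21 in C3, 0.78 ± 0.22 in C3-c-JunP0Cre, 1.11 ± 0.47 in WT-C22 and 0.20 ± 0.14 in C22 mice.

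**Figure D3:**
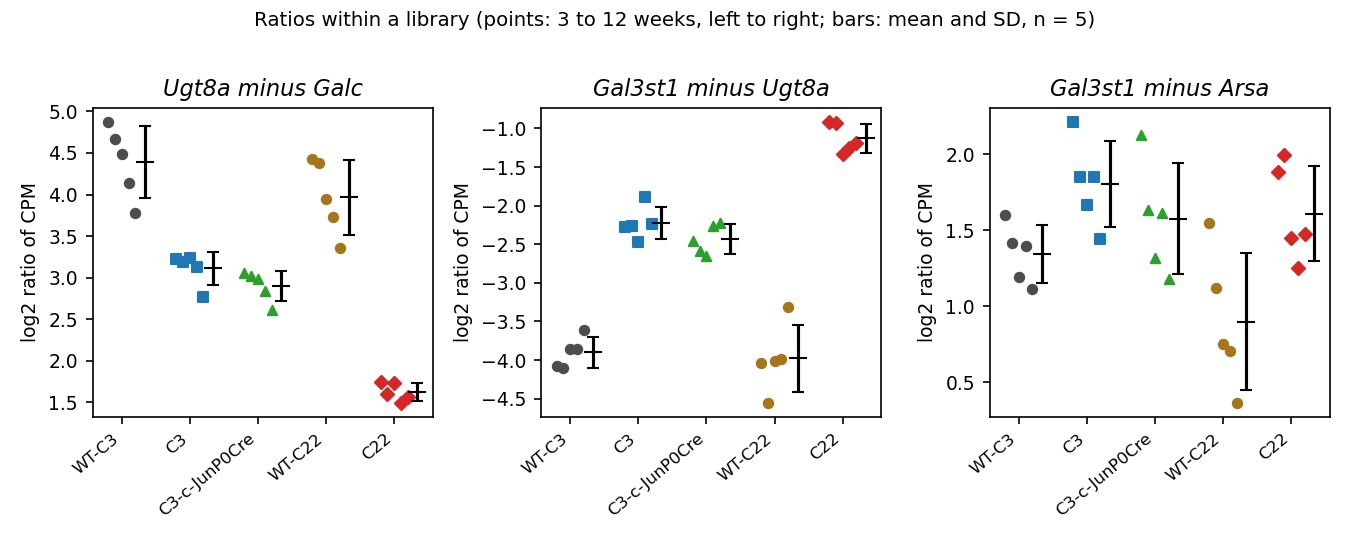
Log2 ratio of CPM within a library (vertical axes, not starting at 0) for 3 pairs of genes in the 5 groups. Points are the ages from 3 weeks (left) to 12 weeks (right), and bars give the mean and SD (n = 5). Ugt8a over Galc falls from a mean of 3.96 in WT-C22 to 1.63 in C22 mice, while Gal3st1 over Ugt8a goes from -3.98 to -1.12.

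Schwann cell genes were measured beside these results. Sox10, a transcription factor of the whole Schwann cell lineage, was higher in C3 (410 ± 24.7 CPM in WT-C3, 619 ± 90.5 CPM in C3, log2 fold change 0.59, edgeR adjusted p = 0.00159) and in C22 mice (409 ± 48.8 CPM in WT-C22, 584 ± 46.1 CPM in C22, log2 fold change 0.51, edgeR adjusted p = 0.00123). Of all genes, 12.5% were called higher in C3 mice, and 21.9% higher and 20.5% lower in C22 mice. Of the 5 Schwann lineage markers, Sox10 and Erbb3 were called higher in each model, and S100b was called lower in C22 mice. Their summed level was 1523 to 1785 CPM in WT-C3, 1804 to 2297 CPM in C3, 1369 to 1813 CPM in WT-C22 and 1542 to 1874 CPM in C22 mice. Relative to Sox10, Ugt8a went from a log2 ratio of 1.84 ± 0.49 to -0.03 ± 0.34 in C3 and from 1.65 ± 0.57 to -1.19 ± 0.09 in C22 mice. Relative to the same gene, Gal3st1 was at -2.06 ± 0.32 in WT-C3 and -2.26 ± 0.20 in C3 mice, and at -2.33 ± 0.22 in WT-C22 and -2.32 ± 0.21 in C22 mice. These ratios of Gal3st1 overlapped between model and control in both cases, while those of Ugt8a did not. Both depend on the marker, since S100b was at a log2 difference of -0.27 in C3 and -0.995 in C22 mice, Cdh19 at 0.10 and -0.09, and Erbb3 at 0.71 and 1.29. The part of the Schwann cell markers in the higher Gal3st1 was not tested.

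The other cell types were followed with marker lists. Of all genes, 12.5% were called higher and 11.4% lower in C3 mice, and 21.9% higher and 20.5% lower in C22 mice. The 11 macrophage markers summed to 423 to 747 CPM in WT-C3, 429 to 575 CPM in C3, 450 to 687 CPM in WT-C22 and 394 to 602 CPM in C22 mice, and of them Cd163 was called lower in C3, and Cd163 and Mrc1 lower and Aif1 higher in C22 mice. None of the 5 fibroblast markers was called in C3 and 1, Pdgfra, was called lower in C22 mice. Of the 3 perineurial markers 2, Slc2a1 and Cldn1, were called lower in C3 and 3, these and Itgb4, in C22 mice. Of the 5 endothelial and pericyte markers 1, Rgs5, was called lower in C3 and 4, Rgs5, Cdh5, Kdr and Pdgfrb, in C22 mice. The 5 adipocyte, the 5 muscle and the 4 tested blood markers gave no call in either model. Muscle markers varied most between libraries, from a median of 57.1 CPM to a highest value of 8392 CPM in WT-C22 mice, at 5 weeks. Hba-a2 was at 0 in all 5 libraries of WT-C22 and of C22 mice, and no other marker was at 0 in a library. The part of these cell types in the results was not tested.

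Transcripts of ceramide synthesis, the route to the substrate of the Ugt8a enzyme, were followed with 14 genes. Of these 11 were tested, and 7 were called lower in C3 mice (11.4% of all genes) and 8 in C22 mice (20.5% of all genes), with 0 called higher by edgeR in either. At the median the list was at a log2 fold change of -0.29 in C3 and -0.42 in C22 mice, with 0.001 and 0.005 for all genes tested. Cers2, the synthase of ceramides with very long chains, fell from 786 ± 88.3 to 515 ± 58.2 CPM in C3 (log2 fold change -0.61, edgeR adjusted p = 0.00201) and from 840 ± 158 to 346 ± 29.7 CPM in C22 mice (-1.28, edgeR adjusted p = 1.37e-05). Cers4, another ceramide synthase, changed by -0.63 in C3 and -1.08 in C22 mice (edgeR adjusted p = 0.000467 and 7.76e-05). Sptlc2, a subunit of the serine palmitoyltransferase that starts the route, changed by -0.36 and -1.11 (edgeR adjusted p = 0.0239 and 5.92e-05). Sptssa, a small subunit of the same enzyme, fell in C3 mice (-0.59, edgeR adjusted p = 0.0001) and was at -0.08 in C22 mice (edgeR adjusted p = 0.497). The difference between the models was called for Cers2, Sptlc2 and Sptssa, and Sptssa is the only one of these with the larger fall in C3 mice. Its level was alike in the models, 37.3 ± 1.45 CPM in C3 and 37.2 ± 3.56 CPM in C22 mice. The controls differed, with 56.0 ± 2.62 CPM in WT-C3 and 39.3 ± 4.62 CPM in WT-C22 mice.

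For the donors of galactose and sulfate, 1 of 10 genes was called lower and 0 higher in C3 mice, against 11.4% and 12.5% of all genes, and 3 were called lower and 3 higher in C22 mice, against 20.5% and 21.9%. The list medians were -0.03 and -0.13. Papss2, which makes the active sulfate donor, was lower in C3 (-0.84, edgeR adjusted p = 0.00123) and in C22 mice (-0.98, edgeR adjusted p = 0.00299). Papss1, which makes the same donor, was more abundant, at 265 CPM in WT-C3 against 41.5 CPM for Papss2. It stood at 262 CPM in C3 mice (log2 fold change -0.02, edgeR adjusted p = 0.888), and at 241 CPM in WT-C22 and 216 CPM in C22 mice. Slc35b2, which carries that donor into the Golgi, was at 0.31 in C3 (edgeR adjusted p = 0.134) and rose in C22 mice (0.63, edgeR adjusted p = 0.00321). Ugp2 and Pgm1, enzymes on the way from glucose phosphates to UDP sugars, fell in C22 mice by 0.53 and 0.65 on the log2 scale (edgeR adjusted p = 0.00431 and 0.0304).

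Of 7 genes for other enzymes that use ceramide, 3 were called higher and 2 lower in C3 mice, against 12.5% and 11.4% of all genes, and 3 higher and 4 lower in C22 mice, against 21.9% and 20.5%. Cerk, the ceramide kinase, rose from 80.8 ± 3.83 to 153 ± 15.7 CPM in C3 (log2 fold change 0.91, edgeR adjusted p = 3.68e-05) and from 89.2 ± 7.26 to 288 ± 27.4 CPM in C22 mice (1.69, edgeR adjusted p = 9.96e-08). St3gal5, which starts the gangliosides by making GM3, rose by 0.54 and 0.81 (edgeR adjusted p = 0.014 and 0.000961). Both sphingomyelin synthases were lower, Sgms1 by -0.62 and -1.23 (edgeR adjusted p = 0.000467 and 3.41e-07) and Sgms2 by -0.47 and -0.85 (edgeR adjusted p = 0.0177 and 8.59e-05). The changes of Cerk and Sgms1 were called larger in C22 than in C3 mice.

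**Figure D4:**
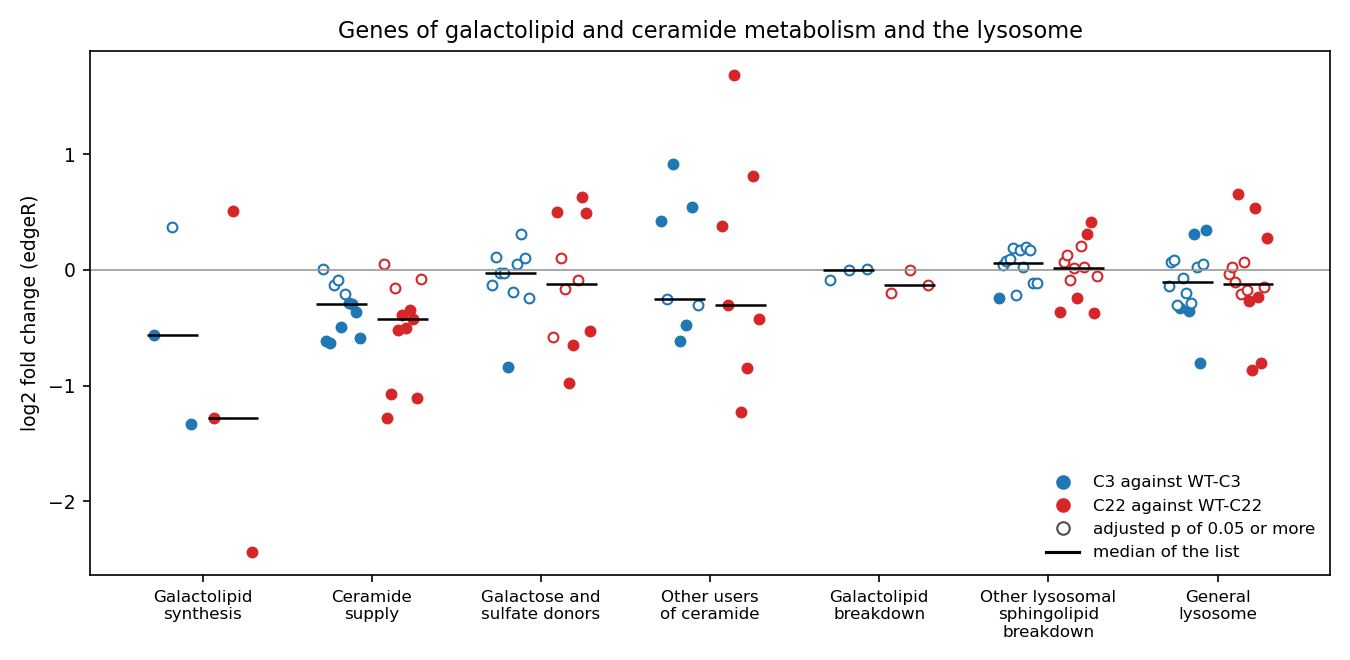
Log2 fold change (vertical axis) of each expressed gene of 7 lists in C3 (blue) and C22 mice (red) against their controls, filled where the edgeR adjusted p is under 0.05, with the list median as a black bar. The points of ceramide supply lie at or below 0 but for Cers1, and those of galactolipid breakdown and other lysosomal breakdown lie between -0.37 and 0.41.

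Lysosomal genes outside the 6 members were called at shares near those of all genes, which were 12.5% higher and 11.4% lower in C3 and 21.9% higher and 20.5% lower in C22 mice. Of 12 other genes of lysosomal sphingolipid breakdown 0 were called higher and 1 lower in C3, and 2 higher and 3 lower in C22 mice, with medians of 0.06 and 0.02. Asah1, the acid ceramidase, fell in C3 (-0.24, edgeR adjusted p = 0.0419) and C22 mice (-0.36, edgeR adjusted p = 0.00256), and Smpd1, the acid sphingomyelinase, in C22 mice (-0.37, edgeR adjusted p = 0.00567). Scarb2, which brings glucocerebrosidase to the lysosome, and Neu1, a sialidase, rose in C22 mice by 0.41 and 0.31 (edgeR adjusted p = 0.000998 and 0.00226). Of 14 general lysosomal genes 2 were called higher and 3 lower in C3, and 3 higher and 4 lower in C22 mice, with medians of -0.11 and -0.13. Npc2, a lysosomal cholesterol carrier, fell by 0.80 on the log2 scale in each model (edgeR adjusted p = 0.000101 in C3 and 2.31e-05 in C22 mice), and Mcoln1, a lysosomal calcium channel, rose (0.31 and 0.53, edgeR adjusted p = 0.0135 and 0.000231). Lipa, the lysosomal acid lipase, fell and Ctsd, a cathepsin, rose in C22 mice (-0.87 and 0.66, edgeR adjusted p = 8.35e-06 and 0.0143).

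Genes for binding and transfer of glycolipids were followed, and Mag and Mbp, from the list of myelin proteins, are given beside them. Mal, a myelin proteolipid that associates with galactolipid-rich membrane, was the only one called of 4 genes for binding and transfer of glycolipids, lower in C3 (-0.63, edgeR adjusted p = 0.0135) and in C22 mice (-1.08, edgeR adjusted p = 0.0011). Of all genes, 11.4% were called lower in C3 and 20.5% in C22 mice. Mag, which sits in the inner layer of the myelin sheath, was higher in C3 (0.52, edgeR adjusted p = 0.0377) and in C22 mice (0.70, edgeR adjusted p = 0.00454). Mbp, the myelin basic protein, was at -0.38 in C3 (edgeR adjusted p = 0.0864) and fell in C22 mice (-1.13, edgeR adjusted p = 0.000624).

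Likeness of pattern was described over the 25 libraries, which share groups, ages and strains, so that no test applies. Ugt8a and Fa2h ran together (Pearson r = 0.97, Spearman 0.97, and 0.92 after group means were removed), and Gal3st1 did not follow Ugt8a over all libraries (r = -0.17) but did so within groups (0.80), where age is the main difference. Galc also followed Ugt8a within groups (0.83) and not over all libraries (0.06). Among 11721 genes with a mean of at least 5 CPM, the 3 most like Ugt8a were mouse Pmp22 (r = 0.99), the animals' own copy of the gene whose human form is the transgene, Idi1 (0.98) and Msmo1 (0.98), both enzymes of sterol synthesis. Those most like Fa2h were Prrg3 (0.98), Pmp22 (0.97) and Peds1 (0.97), the desaturase that forms plasmalogens. Mag (0.94), Adamts17 (0.93) and Bdh1 (0.92) were nearest to Gal3st1. The nearest genes of the breakdown members were less close, with Lrrc8b (0.90), Nipa2 (0.86) and Mme (0.86) for Galc, Aar2 (0.86), Nomo1 (0.85) and Tex264 (0.84) for Psap, and Clec3b (0.76), C5ar1 (0.75) and Notch3 (0.75) for Arsa. Mouse Pmp22 itself stood at 23242 ± 4548 CPM in WT-C3, 10425 ± 1349 CPM in C3, 22931 ± 7459 CPM in WT-C22 and 4314 ± 411 CPM in C22 mice.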

How the data were processed

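Per the labels and the study's methods, the authors checked reads with FastQC 0.11.9, trimmed them with Cutadapt 2.10, aligned them with STAR 2.7.5a to GRCm39 extended by the human PMP22 region, removed duplicates with UMI-tools 1.1.1, counted with HTSeq 0.12.4 on Ensembl 110, and deposited raw counts per gene. The poly(A) libraries were made with a directional kit. Symbols, exons and positions are from GENCODE M39 on GRCm39.

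The deposited counts went into edgeR 4.0.16 (R 4.3.3). A gene was kept if its log2 CPM exceeded 1 in 7 or more of the 25 libraries (25%), which left 13993. Each comparison was fitted by quasi-likelihood to its own libraries, by group, after TMM scaling, and p values were adjusted over all genes kept (Benjamini-Hochberg, threshold 0.05). Age effects used filterByExpr (18088 genes), a natural spline of 3 degrees of freedom or a linear slope, and the whole set of libraries, which leaves 5 or 15 residual degrees of freedom. P values measure the spread between these pools only, which in the group comparisons includes the course with age. CPM were scaled over all 25 libraries, with 0.5 added before the logarithm. The steps were tested on simulated data, and DESeq2 1.42.0 gave an alternative test.

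The 6 genes, the gene lists, the motifs and the alternatives were chosen with earlier results of these data known. Named are the 6 members, per list at most 4 genes with the largest log2 fold change among those called in C3 or C22 mice, and per member the 3 genes most like it. Marker genes of cell types that are named singly, and Papss1, were named after their values were seen. Libraries of the same age counted as pairs only where their deviations from the group means correlated above 0.1 at each age. This held for C3-c-JunP0Cre against C3 (0.449, 0.103, 0.341, 0.261 and 0.63 from 3 to 12 weeks). There a block for age raised the calls from 77 genes (31 higher and 46 lower) to 273 (164 higher and 109 lower), with 0 of the 6 members among them. Some genes of the list of myelin proteins are not reported here, and no counts over that list are given.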

Additional observations from a re-analysis of the deposited data

Results flagged for a closer look

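In 2 of the 30 sets of 5 libraries (6 genes in 5 groups), 1 library stood apart by more than the 95% limit of Dixon for 5 values. That limit is passed in about 1 of 20 sets of 5 draws from 1 distribution. The 5 libraries of a set are a course with age and not such draws, so this rate does not hold here. The WT-C22 library of 12 weeks had 1829 CPM of Psap against 1559 to 1585 CPM in the other 4, a gap of 0.901 of the range. It is 1 of the 5 libraries behind the lower Psap of C22 mice, which did not pass the threshold with edgeR. The WT-C22 library of 3 weeks had 126 CPM of Gal3st1 against 66.8 to 79.9 CPM in the others, a gap of 0.779 of the range. Without it the log2 fold change of Gal3st1 in C22 mice was 0.71 (edgeR adjusted p = 0.00175) in place of 0.51. That fit kept the C22 library of 3 weeks, and Gal3st1 was called lower with age in WT-C22 mice.

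The change of Ugt8a differed between the models by a log2 difference of -1.12 and that of Fa2h by -0.74, each larger in C22 mice. The models also differ in strain, which cannot be told apart from copy number, and mean human PMP22 was 12623 CPM in C3 and 11846 CPM in C22 mice. Age gave a further difference, as the slopes of Ugt8a and Fa2h in C22 mice lay 0.16 and 0.12 log2 CPM per week above those of WT-C22 mice.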

How the results depend on the processing

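Ugt8a and Fa2h kept their calls in C3, C22 and C3-c-JunP0Cre mice against their controls under every alternative run, leaving out each library included, except that at an adjusted p under 0.01 only 1 member was called in C3 mice (Ugt8a). The 6 genes had 84 counts or more in each library, and the tests are limited by 1 pool per age. Leaving out 9 weeks, leaving out the libraries highest in muscle markers and the canonical length were chosen after seeing the data. For the C22 change against the C3 change, 0 members were called with median-ratio size factors, with library size only, with no filter, with filterByExpr and at 0.01, and 0 to 2 with 1 library left out. The DESeq2 Wald test called 5 in C22 mice, with Arsa and Psap added (adjusted p = 0.0378 and 0.0216). In that comparison the alternatives called 3979 to 7218 of all genes, against 5939 in the main fit. Gal3st1 lost its call in C22 mice with median-ratio size factors (edgeR adjusted p = 0.0538) and filterByExpr (0.0508) and was called in C3 mice with library size only (0.0347). The causes were not tested.

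For age, members called were 2 with the linear slope and 3 with the DESeq2 likelihood ratio test in WT-C3 mice, 1 and 2 in C3, 1 and 2 in C3-c-JunP0Cre (and 1 with 2 degrees of freedom), 1 with the likelihood ratio test in C22, and 2 and 2 for C22 against WT-C22. With 1 library left out, slopes were called for 0 to 2 members in WT-C3, 0 to 2 in C3, 0 to 1 in C3-c-JunP0Cre, 1 to 4 in WT-C22 and 0 to 2 for C22 against WT-C22, and 0 to 1 members were called between the controls.

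With age as a replicate block, 2 members were called between the controls, Gal3st1 (-0.28, edgeR adjusted p = 0.0249) and Galc (0.22, 0.0436), and Fa2h was at -0.0089. Outside C3-c-JunP0Cre against C3 the correlation of same-aged libraries was 0.1 or less at 1 age or more, so these were not counted as pairs. Between the controls it was 0.33, 0.648, 0.126, 0.536 and 0.041 from 3 to 12 weeks, and thus missed that rule at 12 weeks only. Beside Gal3st1 in C3 mice (0.38, 0.0077), the block changed no other call of a member.

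The differences and slopes that changed sign are given here, and none passed the threshold in a setting that reversed its sign. Psap in C22 mice, which is among them, was called lower by DESeq2, as given above. Galc in C3 mice was at 0.0749 with library size only, 0.0217 with no filter, 0.0111 with filterByExpr, 5e-04 with all libraries in 1 fit, 0.0695 without 9 weeks, 0.0366 without the libraries highest in muscle markers, and -0.046 to 0.0443 with 1 library left out. In C22 mice it was at -0.0119 with median-ratio size factors, -0.0113 with DESeq2, -0.0023 with filterByExpr and -0.0742 to 0.0686 with 1 left out. Its difference between the models was 0.0971 with library size only, 0.0136 with no filter, 0.0127 with filterByExpr, 0.0068 with all libraries and -0.0937 to 0.0712 with 1 left out. Psap was at -0.0336 without 9 weeks and -0.0311 to 0.0484 with 1 left out in C3, at 0.0368 with library size only in C22, and in C3-c-JunP0Cre against WT-C3 at 0.06 with library size only, 0.0142 with no filter and -0.0596 to 0.0086 with 1 left out, where Gal3st1 ran from -0.0175 to 0.2329. Against C3 the ranges were -0.1672 to 0.0589 for Ugt8a, -0.0669 to 0.0054 for Arsa and -0.0593 to 0.0176 for Psap, and between the controls -0.3473 to 0.0189 for Ugt8a and -0.1249 to 0.1657 for Fa2h. Slopes with 1 left out ran from -0.0097 to 0.0111 (Psap, WT-C3), -0.0227 to 0.033 (Arsa, C3), -0.019 to 0.0322 (Psap, C3), -0.0222 to 0.0341 (Psap, C3-c-JunP0Cre), -0.0222 to 0.0043 (Fa2h, C22), -0.028 to 0.0026 (Galc, C22), -0.0172 to 0.034 (Psap, C3 against WT-C3) and -0.0284 to 0.0701 (Gal3st1, C22 against WT-C22).

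Over all genes, an adjusted p under 0.01 left 1459 calls of 3345 in C3, 849 of 1687 between the models, 38 of 77 in C3-c-JunP0Cre against C3, 1530 of 3015 against WT-C3 and 1720 of 3033 between the controls. C3-c-JunP0Cre against C3 gave 250 with DESeq2, 134 with no filter, 139 with all libraries, 273 with the block and 43 to 98 with 1 left out. Age gave 105 calls in WT-C3 (229 with 2 degrees of freedom, 383 linear, 380 by likelihood ratio), 341 in C3 (843 linear, 948), 510 in C3-c-JunP0Cre (849 linear, 997), 466 in WT-C22 (704 with 2 degrees of freedom, 1099 linear, 966) and 94 in C22 (53 with the CPM filter, 491). For C3 against WT-C3 it gave 4 (2 with 2 degrees of freedom or the CPM filter, 66 by likelihood ratio) and for C22 against WT-C22 7 (20 with 2 degrees of freedom, 47 linear, 0 with the CPM filter, 196).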
